A study of Mus musculus with 63 samples.

Results

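The genes described here are 8 genes of cholesterol synthesis: Hmgcs1, Mvd, Idi1, Fdps, Fdft1, Sqle, Dhcr7 and Insig1. They were taken by symbol from a gene table of 23078 rows that gives TPM (a level scaled for transcript length and for the sum of each library), and each symbol matched 1 row. They were chosen from measured values of the same libraries. The comparison behind the choice was not stated, and newborn neurons against basal progenitors between E15.5 and E18.5 (embryonic days) was taken for it. Values of those 2 cell types on those days are therefore given as a description, with no p-value. The same holds for comparisons of the stem cells with those libraries. Elsewhere the 8 genes are tested, and those p-values hold only if the other libraries played no part in the choice.

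The libraries came from dorsal cortex of C57Bl/6 mouse embryos that all carried a knock-out of Ski, a transcriptional co-repressor, so there was no library with intact Ski to set beside them. Bulk RNA was sequenced from 3 cell types sorted by green fluorescent protein (GFP): newborn neurons (NBN, 13 libraries in 4 groups, E15.5 to E18.5), neural stem cells (NSC, 26 libraries in 8 groups, E11.5 to E18.5) and basal progenitors (BP, 24 libraries in 7 groups, E12.5 to E18.5). NSC were sorted from a Hes5::GFP line, and NBN and BP both from a Tbr2::GFP line; how NBN were separated from BP was not given in the sources used here. The 19 groups held 2 to 6 libraries each. Nothing in the labels says that the libraries of a group were separate embryos, so p-values measure the spread between these samples, which may be technical.

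The table held no counts, so the depth of each library was unknown. Ski was detected in every group, with group means of 42.3 to 43.9 TPM in NBN, 25.2 to 44.9 TPM in NSC and 17.6 to 32.3 TPM in BP. The labels do not state which stretch of Ski was deleted, so these gene totals do not check the knock-out. Hes5, a Notch target of stem cells, averaged 34.2 to 150.9 TPM in the NSC groups and stayed between 2.41 and 4.76 TPM in the NBN and BP groups. Eomes, the gene for Tbr2, averaged 9.49 to 71.5 TPM in NBN, 143.6 to 425.2 TPM in NSC and 360.7 to 530.4 TPM in BP. All libraries were labelled female, yet 39 of 63 had a summed level of 4 Y-linked genes of at least 10 TPM.

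Cholesterol is built from acetyl-CoA. In the mevalonate steps HMG-CoA synthase (Hmgcs1) and mevalonate diphosphate decarboxylase (Mvd) help to make an isoprenoid unit, which Idi1 isomerizes and Fdps joins into farnesyl diphosphate. Squalene synthase (Fdft1) condenses farnesyl diphosphate to squalene, squalene epoxidase (Sqle) oxidizes it, and Dhcr7 acts in the last reductions to cholesterol. Insig1 is no enzyme: when sterols are plentiful it holds the SREBP transcription factors back in the endoplasmic reticulum, and it is itself a target of SREBP2, the factor that turns on most of these enzymes. Once the blood-brain barrier has formed, cholesterol of the brain is mostly made locally, since plasma lipoproteins do not pass that barrier.

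Promoter stretches are shown for Hmgcs1 and Idi1, which gave the largest differences, and for Insig1, the sensor. Each is the 250 bases before a RefSeq transcript start in GRCm38.p6, on the plus strand. Capitals mark 2 motifs, searched on both strands: the classical sterol regulatory element TCACNCCAC and the CCAAT box (ATTGG on the other strand).
Hmgcs1, chr13:119690101-119690350: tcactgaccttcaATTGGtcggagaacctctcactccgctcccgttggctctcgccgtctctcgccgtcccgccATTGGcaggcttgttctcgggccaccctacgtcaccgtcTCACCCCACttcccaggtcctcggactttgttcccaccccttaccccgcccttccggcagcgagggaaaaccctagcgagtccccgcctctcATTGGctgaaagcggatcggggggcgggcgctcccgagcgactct
Idi1, chr13:8885356-8885605: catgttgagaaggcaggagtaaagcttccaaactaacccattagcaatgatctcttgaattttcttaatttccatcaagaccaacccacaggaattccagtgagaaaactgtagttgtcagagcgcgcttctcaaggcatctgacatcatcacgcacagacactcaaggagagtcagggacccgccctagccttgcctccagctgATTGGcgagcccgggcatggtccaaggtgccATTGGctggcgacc
Insig1, chr5:28071162-28071411: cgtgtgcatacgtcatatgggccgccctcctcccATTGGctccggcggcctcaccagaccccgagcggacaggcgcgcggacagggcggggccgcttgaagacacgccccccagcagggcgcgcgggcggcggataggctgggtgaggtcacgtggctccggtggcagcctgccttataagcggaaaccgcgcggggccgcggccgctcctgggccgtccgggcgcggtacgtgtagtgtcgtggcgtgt

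The sterol element was found in the window of Hmgcs1, 137 bases before the start, and in no other member window searched. Of all 32851 promoter windows of the same length, 346 (1.05%) held it. The Hmgcs1 window also held 3 CCAAT boxes, that of Idi1 held 2 and that of Insig1 held 1, whereas 33.8% of all windows held at least 1. Windows were at hand for 5 of the 8 genes (7 windows in all): Mvd held 2 CCAAT boxes, and of 3 windows of Dhcr7 only that starting at chr7:143829964 held any, with 2. These are matches of letters and show no binding. In the GENCODE annotation of GRCm38 all 8 are protein-coding genes: Hmgcs1 lies at chr13:119690379-119708260 (+), Mvd at chr8:122433601-122443422 (−), Idi1 at chr13:8885501-8892451 (+) and Fdps at chr3:89093588-89101959 (−). Fdft1 lies at chr14:63145150-63179578 (−), Sqle at chr15:59315077-59331192 (+), Dhcr7 at chr7:143823145-143848410 (+) and Insig1 at chr5:28071363-28078662 (+).

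All 8 genes were well expressed in every group, and all passed the filter on low values (at least 1 TPM in 3 libraries), as did 15231 genes in all. Hmgcs1 spanned the second widest range of group means, with 670.4 TPM in NBN of E18.5 and 175.1 TPM in BP of E16.5, a 3.83-fold range. Idi1 spanned the widest, with 290.4 TPM in NSC of E11.5 and 37.1 TPM in BP of E16.5, or 7.82-fold. Sqle spanned the narrowest, with 247.4 TPM in NBN of E18.5 and 132.5 TPM in BP of E17.5 (1.87-fold). NBN of E18.5 held the highest group mean of the 19 for Hmgcs1, Mvd, Fdps, Fdft1 and Sqle. For Idi1 and Dhcr7 the highest group was NSC of E11.5, and for Insig1 it was NSC of E13.5. When the 19 group means of a gene were put in order, only 2 or 3 of the 18 neighbouring pairs differed beyond their spread.

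**Figure D1:**
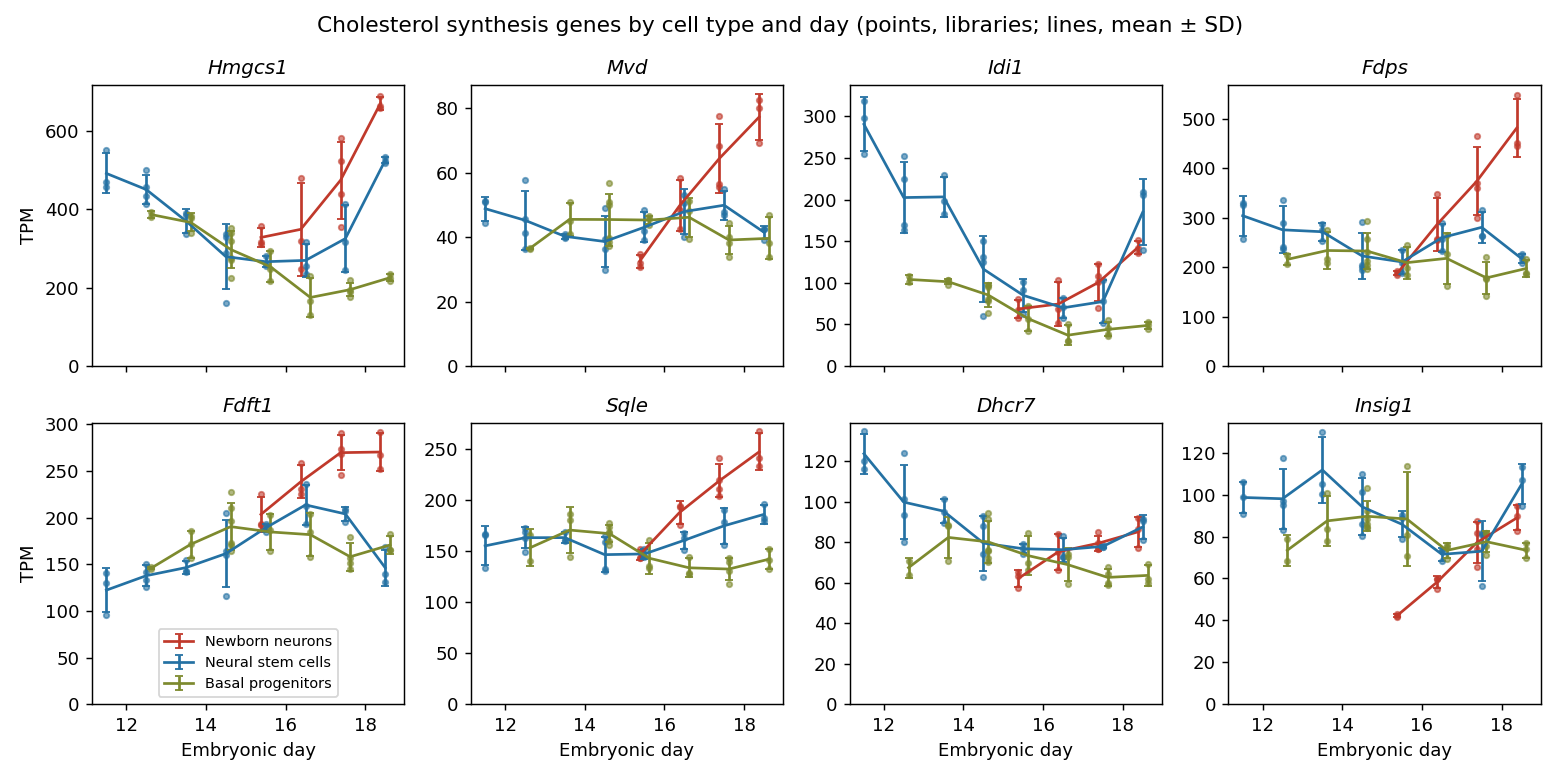
Level in TPM (y axis, from 0) against embryonic day (x axis) for each of the 8 genes in newborn neurons, neural stem cells and basal progenitors; points are libraries, lines join group means and bars are SD. Newborn neurons end highest at E18.5 for Hmgcs1, Mvd, Fdps, Fdft1 and Sqle, and the stem cell curves of Hmgcs1 and Idi1 fall towards E15.5 to E16.5 and are high again at E18.5.

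The first comparison sets newborn neurons against basal progenitors of the same day, E15.5 to E18.5. Averaged over the 4 days, 7 of the 8 genes were higher in NBN and 1, Insig1, was lower. The median difference of the 8 was 0.50 on the log2(TPM + 1) scale, against -0.06 for all 15231 genes. In that fit 25.3% of all genes passed as higher in NBN and 33.3% as lower, at an adjusted p under 0.05 by limma. Since this contrast was taken to have chosen the genes, nothing is read from their count. The median of the 8 grew day by day: it was -0.05 at E15.5, 0.40 at E16.5, 0.74 at E17.5 and 0.88 at E18.5. At E15.5 single genes lay on both sides, from -1.02 (Insig1) to 0.38 (Hmgcs1).

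Hmgcs1, which makes HMG-CoA, showed the largest difference of the 8, 1.04 ± 0.10 (log2, limma SE) over the 4 days. At E15.5 it had 311, 316 and 357 TPM in NBN, against 216, 249 and 295 TPM in BP. At E18.5 it had 664, 658 and 689 TPM in NBN, against 218, 235 and 224 TPM in BP. At E15.5 every NBN library lay above every BP library, as they did for 24.1% of all genes, and the difference was 0.38 ± 0.20 (log2). By E18.5 the difference was 1.57 ± 0.20 (log2). The days between were more scattered: at E16.5 NBN had 479.8, 320.0 and 247 TPM, and the highest BP library, at 229 TPM, came close to the lowest of these.

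Idi1, the isomerase of the isoprenoid unit, had 135.3, 151 and 141 TPM in NBN of E18.5, against 44.8, 52.7 and 48.9 TPM in BP. At E15.5 it had 67.4, 58.0 and 80.5 TPM in NBN, against 42.4, 56.7 and 71.9 TPM in BP, and the ranges overlapped. Its difference over the 4 days was 0.99 ± 0.13 (log2), second to Hmgcs1.

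Fdps, farnesyl diphosphate synthase, began with overlapping values. At E15.5 it had 188, 184 and 191 TPM in NBN, inside the spread of 183, 199 and 245 TPM in BP. At E18.5 it had 446, 451 and 548 TPM in NBN, against 188, 217 and 187 TPM in BP, with no overlap. Mvd, the decarboxylase that precedes Idi1, started on the other side. It had 32.1, 34.8 and 30.7 TPM in NBN of E15.5, all below the 43.9, 46.5 and 45.6 TPM in BP. At E18.5 the order was turned, with 69.1, 80.0 and 82.7 TPM in NBN, against 33.9, 46.8 and 38.2 TPM in BP.

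Of the squalene steps, Fdft1 had 252, 268 and 292 TPM in NBN of E18.5, against 164.99, 182 and 165.1 TPM in BP, a difference of 0.66 ± 0.13 (log2). Sqle had 233, 241 and 268 TPM in NBN of E18.5, against 133, 152 and 142 TPM in BP, a difference of 0.80 ± 0.10 (log2). At E15.5 the 2 cell types overlapped in both genes, with 192 to 225 TPM of Fdft1 in NBN and 164 to 203 TPM in BP, and 143.5 to 152 TPM of Sqle in NBN and 134 to 161 TPM in BP. Both steps were thus apart in all libraries at the later day only. Dhcr7, the reductase near the end of the pathway, had the smallest difference of the 7 enzymes at E18.5. It had 77.4, 86.3 and 91.7 TPM in NBN of E18.5, against 61.8, 69.3 and 59.7 TPM in BP, a difference of 0.41 ± 0.12 (log2). At E15.5 it had stood the other way, with 57.6 to 65.5 TPM in NBN and 66.1 to 84.4 TPM in BP.

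Insig1, the sterol sensor, was at first lower in newborn neurons. At E15.5 it had 43.3, 42.0 and 41.7 TPM in NBN, against 70.6, 80.9 and 113.6 TPM in BP, a difference of -1.02 ± 0.13 (log2). At E18.5 it had 82.6, 89.6 and 94.5 TPM in NBN, against 69.7, 76.7 and 74.0 TPM in BP, a difference of 0.27 ± 0.13 (log2). Its 4-day average of -0.27 ± 0.06 thus joins a clear deficit at E15.5 with a small excess at E18.5.

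The 2 days between showed how the libraries spread. At E16.5 Fdps had 257, 347.9 and 254 TPM in NBN, against 163, 265 and 227 TPM in BP, and 1 BP library lay among those of NBN. At E17.5 it had 299.6, 361, 465.6 and 371 TPM in NBN, against 141, 219.8, 177 and 175.5 TPM in BP. Mvd at E17.5 had 55.4 to 77.7 TPM in NBN and 33.9 to 44.3 TPM in BP, and Idi1 had 69.7 to 122 TPM in NBN and 36.6 to 55.3 TPM in BP. By E17.5 the 7 enzymes were all apart.

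**Figure D2:**
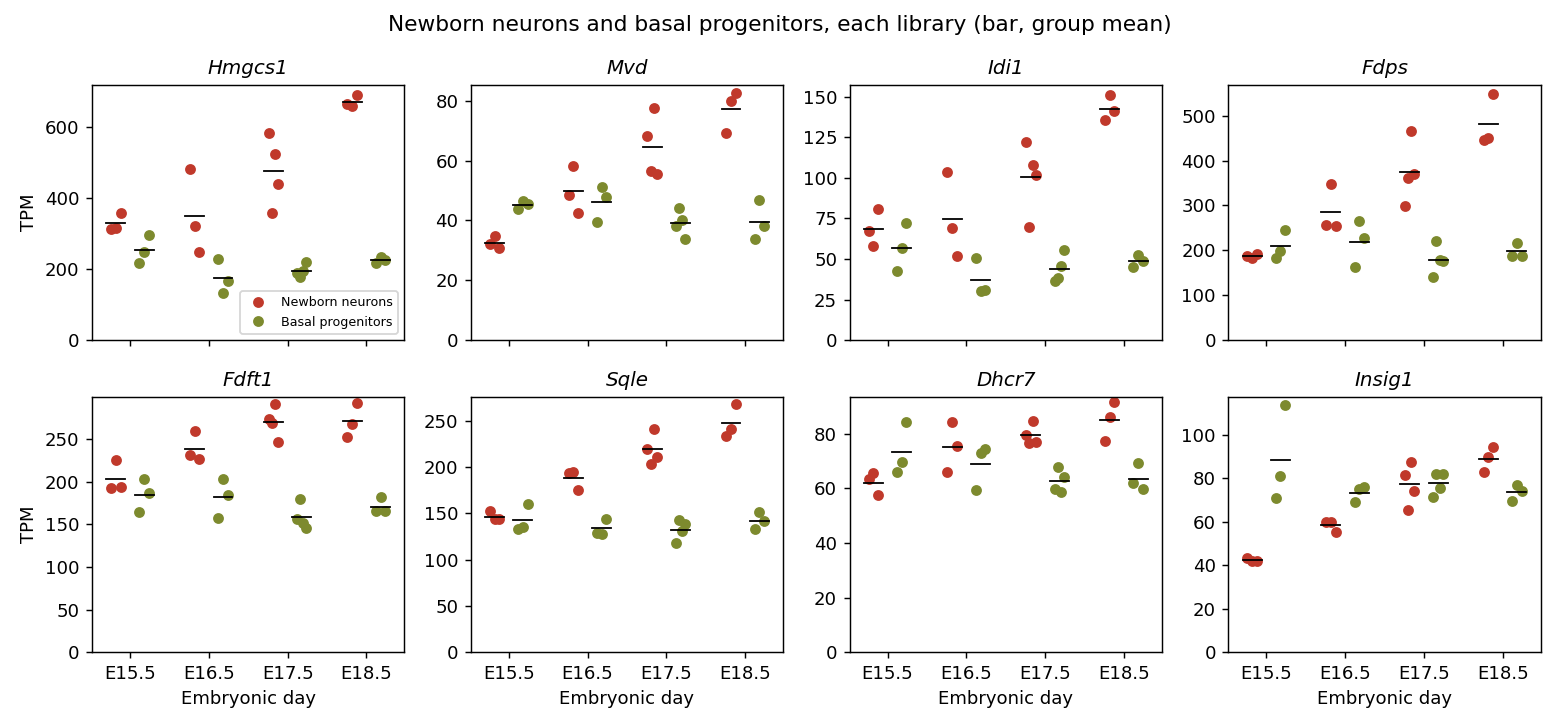
Level in TPM (y axis, from 0) of each gene in every library of newborn neurons and basal progenitors at E15.5 to E18.5 (x axis); bars are group means. At E18.5 every newborn neuron library lies above every basal progenitor library for all 8 genes, while at E15.5 this holds for Hmgcs1 and 3 genes (Mvd, Dhcr7 and Insig1) lie below.

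Counted by libraries, at E15.5 NBN lay wholly above BP for 1 gene and wholly below for 3, where 24.1% and 23.1% of all genes did so. At E16.5 they lay above for 4 and below for 1 (15.9% and 17% of all genes), at E17.5 above for 7 and below for none (15.3% and 21.8%), and at E18.5 above for all 8 (26.8% and 40.7%). The overlap left at E17.5 was that of Insig1, with 65.3 to 87.6 TPM in NBN and 71.3 to 81.8 TPM in BP.

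Each cell type was also compared with itself. Between E15.5 and E18.5 all 8 genes were higher in NBN at the later day, with no overlap of libraries (28.8% of all genes lay wholly above and 16.8% wholly below), and the median change was 1.04 (log2), against 0.05 for all genes. Fdps changed most, at 1.35 ± 0.17, with means of 481.6 ± 57.8 TPM at E18.5 and 187.6 ± 3.78 TPM at E15.5 (SD, n = 3 each). Mvd changed by 1.22 ± 0.15, and Idi1, Insig1 and Hmgcs1 by 1.05 ± 0.26, 1.05 ± 0.13 and 1.03 ± 0.20. Sqle (0.75 ± 0.10), Dhcr7 (0.45 ± 0.12) and Fdft1 (0.41 ± 0.13) changed less. Among all genes, 10.6% passed as higher in NBN at E18.5 and 4.42% as lower.

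The summed level of the 8 genes in NBN was 1071, 1320, 1659 and 2064 TPM at E15.5, E16.5, E17.5 and E18.5. In BP of the same days it was 1054, 934, 887 and 961 TPM. In BP all 8 changes between E15.5 and E18.5 were below 0, from -0.24 ± 0.13 for Insig1 to -0.01 ± 0.10 for Sqle, and for all 8 the libraries of the 2 days overlapped (35.9% of all genes lay wholly above at E18.5 and 8.61% wholly below). All genes had a median change of 0.14 there, which 2 other scalings took to -0.02 and 0.01, so the genes lay at -0.17 in the median against a shifted background; 10.5% of all genes passed as higher in BP at E18.5 and 1.69% as lower. The change in NBN exceeded that in BP for all 8, by 0.52 ± 0.19 (Fdft1) to 1.43 ± 0.24 (Fdps).

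Marker genes of other cell types moved beside this. The summed level of 10 microglia and macrophage genes was 4.42 to 7.69 TPM in NBN libraries of E15.5, 10.2 to 94.3 TPM at E16.5, 35.9 to 136.0 TPM at E17.5 and 113.5 to 154.4 TPM at E18.5. In BP of those days it was 3.08 to 20.5 TPM. All 10 of these genes passed as higher in NBN at E18.5 than at E15.5. Between those days 10.6% of all genes passed as higher in NBN and 4.42% as lower. The sum of 8 basal progenitor genes was 91.7 to 281 TPM in NBN and 1350.0 to 1890.0 TPM in BP, and that of 8 neuron genes was 5795 to 7791 TPM in NBN and 3707 to 5954 TPM in BP. Within NBN between E15.5 and E18.5, 6 of the 8 basal progenitor genes fell by limma, among them Eomes (-2.76 ± 0.43, adjusted p = 4.007e-06), and their sum was 98.5 to 107.0 TPM at E18.5 and 158.1 to 281.2 TPM at E15.5. Of 8 oligodendrocyte lineage genes 4 rose, led by Olig1 (3.84 ± 0.42, adjusted p = 2.214e-09, limma), with a sum of 46.0 to 67.9 TPM at E18.5 and 23.8 to 28.8 TPM at E15.5. In BP that sum was 31.8 to 33.2 TPM at E18.5 and 20.2 to 23.1 TPM at E15.5. Of 8 endothelial and pericyte genes 3 rose in NBN, with a sum of 21.3 to 33.7 TPM at E18.5 and 6.01 to 13.1 TPM at E15.5. Of the 6 astrocyte genes tested 2 rose, with a sum over all 7 of 37.6 to 57.6 TPM at E18.5 and 24.8 to 37.4 TPM at E15.5. Among the radial glia and stem cell genes Slc1a3 (1.27 ± 0.28, adjusted p = 0.00083) and Fabp7 (1.225 ± 0.32, adjusted p = 0.005666) rose by limma, and no other passed. Among the neuron genes Nefl rose (2.015 ± 0.58, adjusted p = 0.01125) and Tbr1 fell (-1.84 ± 0.40, adjusted p = 0.0005866) by limma, and no other passed. The sum of 5 genes of meninges and fibroblasts was 16.8 to 22.0 TPM at E18.5 and 2.15 to 13.6 TPM at E15.5, and no single one of them passed by limma (none had an unadjusted p under 0.05). Their part in the result was not tested. In bulk RNA, more cells of a type and more RNA per cell cannot be told apart.

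The 15 other enzymes of the pathway lie outside the 8, and whether their values played a part in the choice was not stated. Both lists were drawn up with results of these data known, and were measured in the same libraries. The p-values of the 15 are therefore no independent test of the pattern in the 8. Of the 15, 10 passed as higher in NBN than in BP over E15.5 to E18.5 and 1 as lower, by limma with adjustment over all 15231 genes. Of all genes 25.3% passed as higher and 33.3% as lower. Cyp51, a sterol demethylase, was higher by 0.58 ± 0.05 (adjusted p = 2.321e-13). Lbr, a sterol reductase that is also the lamin B receptor of the nuclear envelope, was the one that was lower, by -1.07 ± 0.12 (adjusted p = 3.009e-11).

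Within NBN, 10 of the 15 rose between E15.5 and E18.5 (10.6% of all genes) and none passed as lower (4.42%) by limma. In all, 11 had an unadjusted p under 0.05, all higher. Acat2, which condenses acetyl-CoA, rose by 0.96 ± 0.13 (adjusted p = 2.029e-07), with 284.1 ± 15.8 TPM at E18.5 and 146.1 ± 15.98 TPM at E15.5 (SD, n = 3 each). Its near copy Acat3 may share reads with it. Msmo1, a sterol methyl oxidase, rose by 1.17 ± 0.17 (adjusted p = 1.368e-06). The furthest in the other direction was Ggps1, which leads away from sterols to geranylgeranyl diphosphate, at -0.23 ± 0.21 (limma adjusted p = 0.5566). In BP none of the 15 passed in either direction between those days by limma, and 3 had an unadjusted p under 0.05, among them Tm7sf2 (0.41 ± 0.16) and Nsdhl (-0.29 ± 0.13). With median-of-ratios scaling 2 passed as lower, and with library weights 3 as lower and 1 as higher.

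The difference between these 2 changes was tested directly for the 15. In 8 of them the change in NBN was larger than that in BP, where 1.21% of all genes passed in that direction and 1.46% in the other. The smallest adjusted p-values by limma were those of Acat2 (1.07 ± 0.18, adjusted p = 0.0001377), Nsdhl (0.98 ± 0.18, adjusted p = 0.0003209) and Cyp51 (0.85 ± 0.16, adjusted p = 0.0004345). Lbr lay furthest the other way, at -0.40 ± 0.34 (adjusted p = 0.8277).

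**Figure D3:**
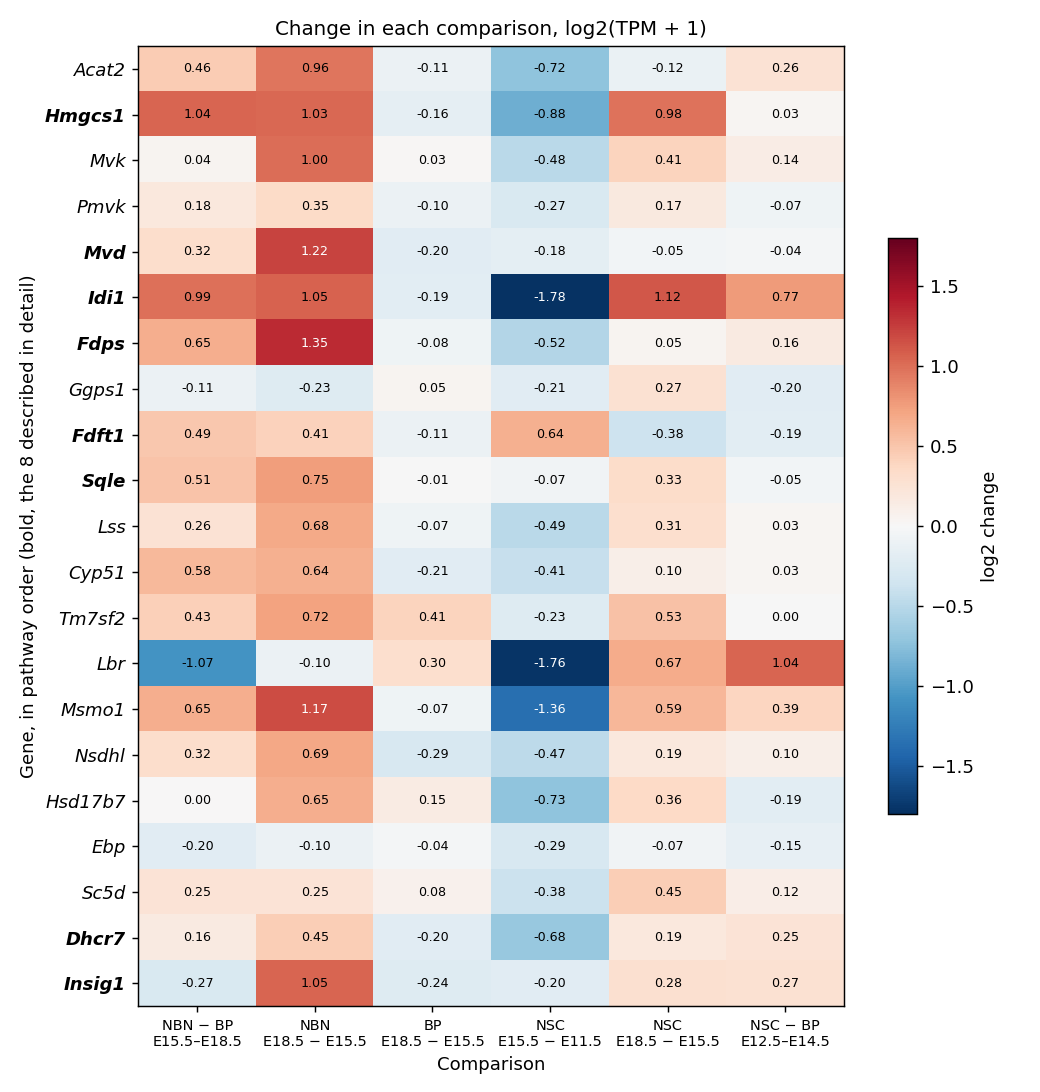
Change on the log2(TPM + 1) scale (colour and printed value) of the 8 genes, in bold, and other enzymes of the pathway (rows, in pathway order with the sensor last) in 6 comparisons (columns). The column of newborn neurons E18.5 minus E15.5 is positive for all but Ggps1, Lbr and Ebp, and that of stem cells E15.5 minus E11.5 is negative for all but Fdft1.

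The stem cells were followed from E11.5 to E18.5. Here the 8 genes were tested, taking these libraries to have played no part in the choice. They did not move as a block. A straight line over the 8 days gave 4 genes that fell and 2 that rose by limma, while 27.7% of all genes passed as lower and 37.1% as higher. Idi1 fell most, by -1.39 ± 0.19 over the 7 days (log2, adjusted p = 1.932e-08). Dhcr7 (-0.51 ± 0.09, adjusted p = 5.327e-06), Insig1 (-0.30 ± 0.10, adjusted p = 0.008207) and Fdps (-0.28 ± 0.13, adjusted p = 0.04662) fell less. Fdft1 rose by 0.55 ± 0.10 (adjusted p = 4.415e-06) and Sqle by 0.19 ± 0.07 (adjusted p = 0.01931). Hmgcs1 (-0.27 ± 0.15, adjusted p = 0.1201) and Mvd (0.00 ± 0.12, adjusted p = 0.9733) passed in neither direction, although Hmgcs1 passed as lower with median-of-ratios scaling (-0.34 ± 0.13, adjusted p = 0.0213) and with transcript length as a covariate (-0.39 ± 0.09, adjusted p = 0.0001897). The calls of Idi1 and Dhcr7 held under each alternative run. That of Insig1 was lost with library weights (-0.12 ± 0.11, adjusted p = 0.3533) and for E18.5 minus E11.5 (0.09 ± 0.13, adjusted p = 0.6106), and that of Fdft1 for E18.5 minus E11.5 (0.27 ± 0.13, adjusted p = 0.08592). The call of Fdps was lost when any 1 of 15 single libraries was left out, with no filter, quantile scaling, library weights or the length covariate (adjusted p from 0.05597 to 0.08892) and without E18.5 (adjusted p = 0.2226), and that of Sqle with any 1 of 3 (NSC E11.5 replicate 1, E17.5 replicate 2 or E18.5 replicate 1), with median-of-ratios scaling (0.12 ± 0.08, adjusted p = 0.1995) and without E18.5 (0.07 ± 0.08, adjusted p = 0.4185).

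A line hid a turn, so the course was also split at E15.5, a choice made after seeing the data. Hmgcs1 averaged 492, 451, 370.2, 279, 266, 269.7, 325 and 525 TPM from E11.5 to E18.5. It fell by -0.88 ± 0.20 between E11.5 and E15.5 (adjusted p = 0.0002649, limma). It then rose by 0.98 ± 0.20 between E15.5 and E18.5 (adjusted p = 0.0002368), where its 3 libraries had 524, 519 and 533 TPM, all above every earlier NSC library but 1 (550.3 TPM at E11.5). With E18.5 left out, the line for Hmgcs1 fell by -0.82 ± 0.16 (adjusted p = 1.271e-05).

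Idi1, too, fell and then rose, with means of 290.4, 202, 203, 116.5, 85.0, 70.0, 77.5 and 184.9 TPM. It fell by -1.78 ± 0.26 in the first interval (adjusted p = 1.095e-07) and rose by 1.12 ± 0.26 in the second (adjusted p = 0.0009723, limma). At E18.5 it had 139, 209 and 206 TPM, below the 255 to 319 TPM of E11.5. Sqle did not pass in the first interval (-0.07 ± 0.10, adjusted p = 0.5847) and rose in the second by 0.33 ± 0.10 (adjusted p = 0.008399, limma), a call that was lost with median-of-ratios scaling (0.18 ± 0.11, adjusted p = 0.2095).

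Fdft1 ran against them. Its NSC means were 122, 138, 146.5, 161.5, 189, 214, 204 and 146 TPM from E11.5 to E18.5. It rose by 0.64 ± 0.13 up to E15.5 (adjusted p = 5.696e-05) and fell by -0.38 ± 0.13 from there to E18.5 (adjusted p = 0.03127, limma). The second of these calls was lost when any 1 of 5 of the 6 libraries was left out (all but E18.5 replicate 1, at 168 TPM the highest of its day). Dhcr7 (-0.68 ± 0.12, adjusted p = 9.741e-06) and Fdps (-0.52 ± 0.17, adjusted p = 0.007979) fell in the first interval, and neither passed in the second by limma, with 0.19 ± 0.12 (adjusted p = 0.2861) and 0.05 ± 0.17 (adjusted p = 0.8617). In all, 1 of the 8 rose and 4 fell in the first interval, beside 26.7% and 26.2% of all genes. In the second, 3 rose and 1 fell, beside 19.1% and 5.94%.

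Of the 15 other enzymes 10 fell in the first interval (26.2% of all genes) and none passed as higher (26.7%) by limma (12 had an unadjusted p under 0.05, all lower). Among them were Msmo1 (-1.36 ± 0.17, adjusted p = 5.865e-09) and Lbr (-1.76 ± 0.24, adjusted p = 3.037e-08). In the second 4 rose (19.1% of all genes), among them Msmo1 (0.59 ± 0.17), Tm7sf2 (0.53 ± 0.16) and Lbr (0.67 ± 0.24). That count was 0 with median-of-ratios scaling and 10 with library weights. Over the whole course 9 fell (27.7% of all genes). The one that rose (37.1%) was Tm7sf2 (0.49 ± 0.12, adjusted p = 0.0003111), a sterol reductase with the same activity as Lbr, which fell by -1.90 ± 0.18 (adjusted p = 5.893e-13).

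At E18.5 the stem cell libraries also differed in their markers. The sum of 7 astrocyte genes was 386 to 725 TPM there and 100.2 to 243 TPM at E15.5. The sum of 8 oligodendrocyte lineage genes was 296 to 569 TPM at E18.5 and 23.8 to 27.6 TPM at E15.5, and that of 8 neuron genes was 2360.0 to 3906 TPM at E18.5 and 4328 to 4936 TPM at E15.5. Among the interneuron genes, Dlx1 averaged 147.6 TPM at E18.5 and 25.16 TPM at E15.5, and Gad1 36.89 and 13.25 TPM. Means of Dlx2, Dlx5 and Gad2 were also higher at E18.5, while Lhx6 had its highest group mean at E16.5 (37.41 TPM). The part of these markers in the return of Hmgcs1 and Idi1 was not tested.

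Stem cells were set against basal progenitors on E12.5 to E14.5, days taken to have played no part in the choice of the genes. Here 3 of the 8 passed as higher in NSC and 1 as lower, beside 27.6% and 23.5% of all genes. Idi1 was higher by 0.77 ± 0.14 (adjusted p = 1.38e-05, limma). At E12.5 it had 169, 164, 252 and 224 TPM in NSC, against 100.4 and 108 TPM in BP. At E14.5 the ranges overlapped, with 59.8 to 151 TPM in NSC and 63.3 to 97.5 TPM in BP. Insig1 was higher by 0.27 ± 0.07 (adjusted p = 0.001663) and Dhcr7 by 0.25 ± 0.07 (adjusted p = 0.002375, limma). The call of Dhcr7 was lost without E12.5 (0.10 ± 0.08, adjusted p = 0.3431).

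Fdft1 was lower in NSC by -0.19 ± 0.07 (adjusted p = 0.02933, limma), a call that was lost when any 1 of 5 single libraries was left out (NSC E12.5 replicate 3, NSC E14.5 replicate 1, BP E12.5 replicates 1 and 2 and BP E13.5 replicate 3). Hmgcs1, which later differed most between NBN and BP, had no detectable difference between NSC and BP here (0.03 ± 0.11, adjusted p = 0.8381, limma), but did pass with transcript length as a covariate (0.22 ± 0.07, adjusted p = 0.007038). Of the 15 other enzymes 4 were higher in NSC by limma (27.6% of all genes) and 1 was lower (23.5%). The higher ones included Lbr (1.04 ± 0.13, adjusted p = 7.469e-09) and Msmo1 (0.39 ± 0.10, adjusted p = 0.0005362). All 6 interneuron genes measured were higher in NSC too, with a summed level of 53.1 to 719 TPM in NSC and 4.43 to 17.3 TPM in BP. Their part in these differences was not tested.

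Within BP between E12.5 and E14.5, 1 of the 8 passed, Fdft1, which rose by 0.37 ± 0.13 (adjusted p = 0.04956, limma), beside 8.4% of all genes higher and 5.99% lower. It had 173, 227, 211, 197, 164 and 171 TPM at E14.5, against 144.9 and 147 TPM at E12.5. The call was lost without any 1 of 5 libraries (E12.5 replicates 1 and 2, and E14.5 replicates 2, 3 and 4). In NSC of the same days Hmgcs1 (-0.74 ± 0.18, adjusted p = 0.001323), Idi1 (-0.85 ± 0.22, adjusted p = 0.004319) and Dhcr7 (-0.32 ± 0.11, adjusted p = 0.02633) fell, beside 9.79% of all genes higher and 11.4% lower. The difference between the NSC and BP changes did not pass for any of the 8 by limma (3 had an unadjusted p under 0.05); the nearest was Dhcr7, at -0.56 ± 0.16 (adjusted p = 0.06987), and 0.571% and 0.913% of all genes passed as higher and lower.

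On the later days E15.5 to E18.5, described only, all 8 genes averaged higher in NSC than in BP, from 0.09 ± 0.07 (Insig1) to 1.03 ± 0.13 (Idi1), where 18.6% of all genes passed as higher and 11.3% as lower. Between NBN and NSC 5 were higher in NBN (Fdft1 0.39 ± 0.07, Hmgcs1 0.38 ± 0.10, Fdps 0.38 ± 0.08, Sqle 0.24 ± 0.05 and Mvd 0.22 ± 0.08). Insig1 was lower in NBN, at -0.36 ± 0.07. Of all genes 21.8% passed as higher in NBN and 32.8% as lower. Idi1 and Dhcr7 lay within 1.5 SE of 0. The sum of the 8 genes was lowest in BP on each of these days, but at E15.5 the means of 1071 TPM in NBN and 1104 TPM in NSC lay inside the BP range of 921 to 1203 TPM.

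The 8 genes were also compared by the shape of their 19 group means. These correlations describe the groups, whose genes share libraries and scaling. Over all 19 groups the 28 pairs had Pearson r from -0.48 to 0.89, with a median of 0.49. Over the 4 NBN groups alone they ran from 0.80 to 1.0, over the 7 BP groups from -0.31 to 0.99, and over the 8 NSC groups from -0.98 to 0.92. All 8 means rose from day to day in NBN, in libraries taken to have chosen the genes. High r over those 4 points restates that rise and is no further result. Other gene pairs were not set beside it. With the mean profile of the 8, Fdps (0.93), Sqle (0.88), Hmgcs1 (0.85) and Mvd (0.81) went closest and Fdft1 (0.26) and Insig1 (0.47) least.

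Among 11237 other genes with a group mean of at least 10 TPM, those closest to that mean profile over the 19 groups were Nsdhl (r = 0.95), Cyp51 (0.92), Lss (0.91), Acat2 (0.88), Acat3 (0.87) and Nudt2 (0.86). The first 4 are synthesis enzymes, Acat3 is the near copy of Acat2, and Nudt2 hydrolyses dinucleoside polyphosphates. The farthest were Gse1 (-0.86), H2-T22 (-0.86) and Cadps (-0.83). Of the 15 other enzymes 9 stood in the first 100 places and 12 in the first 1000, and their median r was 0.75, against -0.03 for all genes compared. Ggps1, Ebp and Lbr were the 3 that did not reach the first 1000. The microglia genes lay at 0.51 to 0.63, with all 7 that reached 10 TPM in the first 1000.

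**Figure D4:**
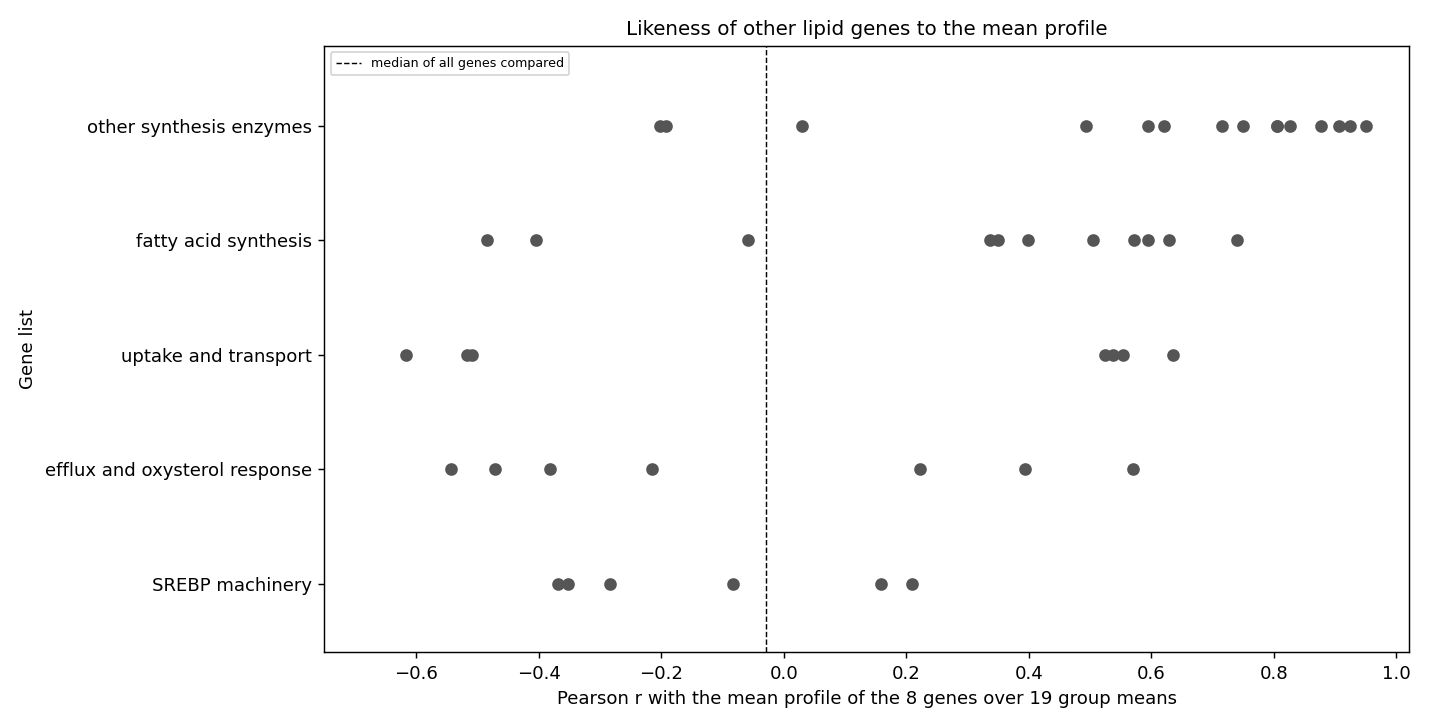
Pearson r (x axis) of each gene's 19 group means with the mean profile of the 8 genes, for 5 lists of lipid genes (y axis); each point is a gene and the dashed line is the median of all genes compared, -0.03. The other synthesis enzymes have a median of 0.75, and the SREBP machinery runs from -0.37 to 0.21.

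The genes were grouped otherwise when single libraries were compared. Each library was set against the mean of its own group, over 63 libraries. Hmgcs1 and Idi1 deviated together (r = 0.83). Mvd, Fdps, Fdft1 and Dhcr7 also deviated together, with r of 0.63 to 0.78 over their 6 pairs. Between these 2 sets all 8 pairs had negative r, from -0.53 to -0.24. Fdps and Hmgcs1, both at 0.85 or more with the mean profile across groups, had r = -0.44 across libraries within groups. The 2 sets were named after these values were seen.

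Some single libraries showed the split and others did not. Of the 63 libraries 10 had all 8 genes on one side of their group means, and 18 had 7 or 8 on one side. In NBN of E17.5 replicate 3 lay above for all 8 and replicate 2 below for all 8. Libraries that showed the split are described next. In NSC of E14.5, replicate 2 had the lowest Hmgcs1 (160.3 TPM, others 289.6 to 337) and the lowest Idi1 (59.8 TPM, others 124.7 to 151). The same library had the highest Fdps (291 TPM, others 194 to 205) and the highest Fdft1 (204.5 TPM, others 116 to 164.8). Replicate 1 of E16.5 showed the split in BP and only in part in NBN. In NBN it had the highest Hmgcs1 (479.8 TPM) and Idi1 (103 TPM) of 3, but its Mvd (-0.03) and Fdft1 (-0.04) lay near the group mean (log2). Replicate 2 had the highest Fdps (347.9 TPM) and Mvd (58.3 TPM). Replicate 3 went against the split, with the lowest Hmgcs1, Idi1, Mvd, Fdps and Fdft1. In BP replicate 1 had the highest Hmgcs1 (229 TPM) and Idi1 (50.8 TPM), and the lowest Fdps (163 TPM), Mvd (39.4 TPM) and Fdft1 (157.5 TPM).

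These deviations moved with a difference across the whole transcriptome. The first axis of the within-group deviations of all 15231 genes held 29.4% of their variance. Hmgcs1 (r = -0.78) and Idi1 (-0.75) ran against it, Fdps (0.75), Fdft1 (0.69), Mvd (0.62) and Dhcr7 (0.61) ran with it, and Sqle (0.06) and Insig1 (-0.07) were near 0. NSC E14.5 replicate 2 had the highest score of the 63 libraries, and BP and NBN of E16.5 replicate 1 the lowest. What the axis stands for was not tested. With each library left out in turn, the median difference of the 8 between NBN and BP over the 4 days kept between 0.48 and 0.51.

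**Figure D5:**
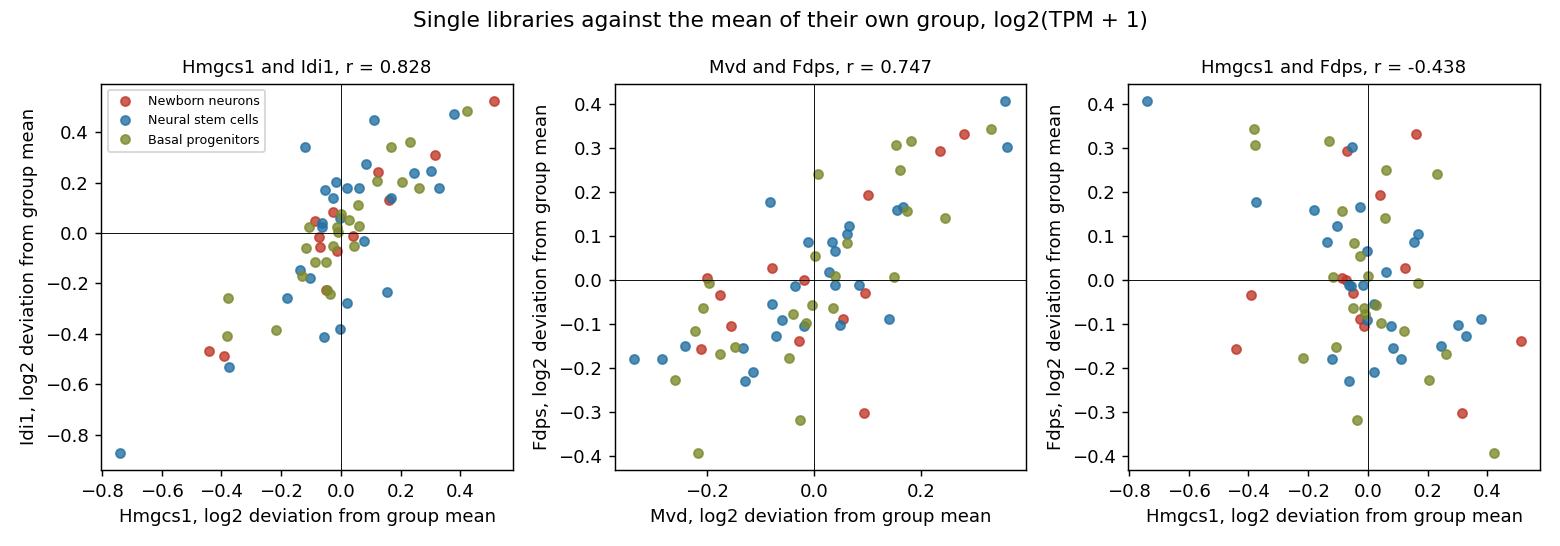
Deviation of each of 63 libraries from the mean of its own group on the log2(TPM + 1) scale, for Hmgcs1 (x) and Idi1 (y), Mvd (x) and Fdps (y), and Hmgcs1 (x) and Fdps (y); colours are cell types. The first 2 pairs rise together (r = 0.828 and 0.747), and Hmgcs1 and Fdps run against each other (r = -0.438).

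The regulators of the pathway were looked at next. Of 6 genes of the SREBP machinery, 1 was higher and 3 were lower in NBN than in BP over E15.5 to E18.5 by limma, beside 25.3% and 33.3% of all genes. Srebf1, whose product mainly drives fatty acid genes, was lower by -1.53 ± 0.08 (adjusted p = 1.333e-21), Mbtps1, a protease that cuts SREBP, by -0.71 ± 0.05 (adjusted p = 3.049e-18), and Insig2 by -0.30 ± 0.05 (adjusted p = 4.905e-06). Scap, the escort of SREBP, was higher by 0.18 ± 0.06 (adjusted p = 0.01593). Srebf2, which encodes SREBP2, did not pass there (-0.04 ± 0.06, adjusted p = 0.5774), and was the 1 gene of the 6 that rose in NBN between E15.5 and E18.5 (0.37 ± 0.12, adjusted p = 0.02251). In the NSC course 5 of the 6 rose, beside 37.1% of all genes, led by Insig2 (0.68 ± 0.08, adjusted p = 1.171e-09), Scap (0.44 ± 0.10, adjusted p = 0.000121) and Mbtps2 (0.89 ± 0.21, adjusted p = 0.000271).

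Of 9 genes of cholesterol uptake and transport, 8 could be tested. Over E15.5 to E18.5, 5 were higher (25.3% of all genes) and 3 lower (33.3%) in NBN than in BP. The 3 were Npc2 (-0.91 ± 0.08, adjusted p = 3.681e-14), Lrp8 (-1.07 ± 0.12, adjusted p = 2.461e-10) and Npc1 (-0.34 ± 0.06, adjusted p = 1.789e-06) by limma, of which the NPC proteins export cholesterol from lysosomes and Lrp8 is a reelin and apolipoprotein E receptor. Within NBN 4 of the 8 rose between E15.5 and E18.5, beside 10.6% of all genes, with the smallest adjusted p for Tmem97 (0.88 ± 0.19, adjusted p = 0.0007173) and the sterol carrier Stard4 (1.00 ± 0.24, adjusted p = 0.00182). In the NSC course 4 of the 8 fell, among them Tmem97 (-1.09 ± 0.14, adjusted p = 5.443e-09), and 2 rose, among them Lrp8 (1.97 ± 0.19, adjusted p = 1.542e-12), beside 27.7% and 37.1% of all genes.

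Of 11 genes of fatty acid synthesis, the sister pathway, 4 were higher and 4 lower in NBN than in BP, where the shares of all genes were 25.3% and 33.3%. Me1, malic enzyme, was higher by 1.95 ± 0.08 (adjusted p = 1.002e-25), while Acly (-0.89 ± 0.05, adjusted p = 1.359e-21) and Acss2 (-0.71 ± 0.08, adjusted p = 3.454e-11), which supply acetyl-CoA, were lower by limma. Within NBN 5 rose between E15.5 and E18.5 (10.6% of all genes), led by Fasn, fatty acid synthase (0.86 ± 0.13, adjusted p = 1.378e-06), Acaca (0.84 ± 0.16, adjusted p = 0.0001118) and Scd1 (0.81 ± 0.17, adjusted p = 0.0006111), and Me1 fell (-0.55 ± 0.16, adjusted p = 0.01523). Of 10 tested genes of efflux and oxysterol response, 4 were higher and 5 lower in NBN than in BP, again beside 25.3% and 33.3%. The exporter Abca1 was lower by -2.52 ± 0.18 (adjusted p = 2.762e-17), whereas Abcg4 (0.92 ± 0.07, adjusted p = 9.955e-16) and Cyp46a1, the neuronal cholesterol hydroxylase (1.59 ± 0.12, adjusted p = 1.105e-15), were higher by limma.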

How the data were processed

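TPM per gene were deposited by the authors in 1 table of 63 libraries; single 50-base reads of TruSeq libraries and kallisto 0.43.0 are named in the labels' protocols and the submitters' processing notes, with builds GRCm38.p2 and mm10. Each column has the same sum, so counts and depth were unknown and changes are relative within a library. Groups came from the labels.

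With limma 3.58.1 in R 4.3.3, log2(TPM + 1) of 15231 genes (those reaching 1 TPM in 3 or more libraries) was fitted with 1 mean per group over all 63 libraries and an intensity trend; p-values were Benjamini-Hochberg adjusted over all genes, and a gene passed at an adjusted p under 0.05. The pseudocount understates changes of low genes. The script was tested on simulated data. The 8 genes and all gene lists were chosen with earlier results of these data known. Named genes were the 8, up to 3 genes of smallest adjusted p per list with the furthest in the other direction, and the 6 most and 3 least like genes; others named were chosen after their values were seen, and a few genes that the rule names are not reported here. Of 151 listed symbols 149 matched by symbol, 1 (Msmo1) by Ensembl ID and 1 did not match. Promoters were RefSeq windows of GRCm38.p6 and gene positions GENCODE vM21 (GRCm38). Same-numbered NBN and BP libraries were not taken as pairs. Alternatives covered pseudocount, filter, scaling, weights, covariates, libraries and days. Python 3.11.15, pandas 2.3.3 and matplotlib 3.10.9 were used.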

Additional observations from a re-analysis of the deposited data

Results flagged for a closer look

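Fdps in NSC of E14.5 had 291.5 TPM in replicate 2, far from the 194 to 205 TPM of the other 3 libraries relative to the range of that group. It was the 1 such gap among 40 gene and group combinations of 4 to 6 libraries. Chance gives about 1 in 20, so about 2 were expected by chance alone. The same library stood at the end of the first within-group axis of all genes.

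Fdft1 moved in opposite ways in the 2 late cell types between E15.5 and E18.5. Every NBN library of E18.5 lay above every one of E15.5 (change 0.4096, log2), and every NSC library of E18.5 lay below every one of E15.5 (change -0.376). The difference between these changes was not tested.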

How the results depend on the processing

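The 4-day average differences of the 8 genes between NBN and BP and their changes within NBN kept their direction under every alternative run, and their medians moved by less than the spread between replicates. Of the single days, which were refitted under 2 other scalings only, E17.5 had 7 of the 8 above 0 as deposited and all 8 with either scaling; Insig1, at -0.01 as deposited, was the one below. Without E18.5, Mvd came to 0.11 and Insig1 to -0.45 in NBN minus BP. The results that moved were the counts of passing genes, as follows.

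In the NSC course 1 gene in place of 2 passed as higher with median-of-ratios scaling, for E18.5 minus E11.5 and without E18.5, and 2 in place of 4 as lower with library weights. In NSC minus BP at E12.5 to E14.5, 0 in place of 1 passed as lower with median-of-ratios scaling and with the libraries of the comparison alone. In BP E14.5 minus E12.5, 0 in place of 1 passed as higher with no filter, median-of-ratios scaling, a Y-linked covariate and the libraries of the comparison alone, and 1 in place of 0 as lower with library weights and a transcript length covariate (Hmgcs1 both times). In NSC E18.5 minus E15.5, 5 in place of 3 passed as higher with library weights (Insig1 and Dhcr7 were added), and 2 with median-of-ratios scaling, where Sqle no longer passed. The median of the 8 in BP E18.5 minus E15.5 was -0.34 with median-of-ratios scaling. The cause was not tested.

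Signs turned for small values: in the NSC course Mvd to -0.11 (quantile scaling), -0.069 (median-of-ratios) and -0.23 (E18.5 minus E11.5), and Hmgcs1 to 0.10 and Insig1 to 0.087 for E18.5 minus E11.5. In NSC E18.5 minus E15.5 Fdps turned to -0.10 (median-of-ratios) and Mvd to 0.011 (weights) and 0.046 (length covariate). Hmgcs1 in NSC minus BP turned to -0.060 without E12.5.

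With single libraries left out, the counts ran from 0 to 1 for BP E14.5 minus E12.5 (higher), NSC E18.5 minus E15.5 (lower) and NSC minus BP (lower), and from 1 to 2 for the NSC course (higher). The BP E18.5 minus E15.5 median ran from -0.24 to -0.041, Fdps there from -0.16 to 0.045 and Sqle from -0.056 to 0.078. Fdps ran from -0.026 to 0.13 and Mvd from -0.11 to 0.035 in NSC E18.5 minus E15.5, Mvd from -0.034 to 0.055 in the NSC course and Hmgcs1 from -0.0045 to 0.11 in NSC minus BP. Where BP E12.5 was left with 1 library, that library was assumed to vary like the other groups.

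Same-numbered NBN and BP libraries of a day deviated together in 12 of 13 pairs (r over 0.1; range -0.15 to 0.83, median 0.37), and 11 of 13 NBN libraries correlated best with their own number; for NSC and BP 7 of 21 pairs did so. A block was then added for each same-day, same-numbered pair of NBN and BP libraries. Each day had as many NBN as BP libraries, so this block cannot move the median NBN minus BP difference (0.50). It bears only on the spread and thus on the calls. The test of the change in NBN against the change in BP was not refitted with these pairs. Counts over all genes were then 3946 higher and 5249 lower, against 3846 and 5068 without the block. In the comparisons that tested the 8 genes the number itself was the block, and no call of the 8 changed.

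Scaling set the balance of calls over all genes: the higher share was 57.2% in the NSC course and 46.8% with quantile scaling, 70.6% and 55.4% in NBN E18.5 minus E15.5, 86.2% and 49.7% in BP E18.5 minus E15.5, and 76.3% and 43.1% in NSC E18.5 minus E15.5, 40.0% and 52.6% in NBN minus NSC, and 62.1% and 46.0% in NSC minus BP at E15.5 to E18.5. Numbers of calls over all genes moved by more than 1.5 times most with library weights: NBN E18.5 minus E15.5 gave 3453 higher and 1860 lower with weights, against 1620 and 673, BP E18.5 minus E15.5 gave 3902 and 1015 against 1603 and 257, and NSC E18.5 minus E15.5 gave 5637 and 2737 against 2909 and 904. BP E14.5 minus E12.5 gave 2265 and 1711 with weights, against 1279 and 912, and 561 lower among genes with a mean of at least 5 TPM. Higher calls over all genes also fell to 1024 in NBN E18.5 minus E15.5 with that filter, and to 604 in BP E18.5 minus E15.5 and 1668 in NSC E18.5 minus E15.5 with quantile scaling.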
